A study of Mus musculus with 26 samples.

Results

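The Tmem106 family of the mouse consists of 3 paralogous genes, Tmem106a, Tmem106b and Tmem106c, and all 3 were taken by name from the 52636 genes in the files. The data are bulk RNA sequencing of poly(A) RNA from mouse microglia, the resident macrophages of the brain, in 26 libraries. The mice carried wild-type (WT), heterozygous (HET) or knockout (KO) alleles of Tmem106b together with WT, HET or KO alleles of Grn, the gene for progranulin. Tmem106b WT was combined with Grn WT (n = 3), Grn HET (n = 5) or Grn KO (n = 4). Tmem106b HET was combined with Grn WT (n = 4), Grn HET (n = 3) or Grn KO (n = 3), and Tmem106b KO with Grn WT only (n = 4). Each library also carries a sex (14 female, 12 male) and a dissection called Entire (18 libraries) or Hemi (8 libraries), which the labels do not explain. The sources used here do not give the design of the alleles, the age of the mice or how the cells were isolated. Whether the libraries are from different animals is not stated either, so p-values measure the spread between libraries, part of which may be technical.

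The family encodes small membrane proteins with a single membrane-spanning segment. Tmem106b is a glycoprotein of late endosomes and lysosomes that acts in lysosome size, acidification and transport, and variation near the human gene modifies the risk of frontotemporal dementia, above all in carriers of progranulin mutations. Tmem106a is best known from macrophages, where it has been linked to activation, and Tmem106c is the least studied of the family. When a gene is disrupted, paralogs are sometimes expressed at a higher level, so the questions here are how much Tmem106b RNA was left in Tmem106b KO microglia and whether Tmem106a or Tmem106c was higher there.

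All 3 genes lie on the plus strand of different chromosomes in GRCm38 (GENCODE). Tmem106a (ENSMUSG00000034947) is at chr11:101582242-101591788, Tmem106b (ENSMUSG00000029571) at chr6:13069759-13089269 and Tmem106c (ENSMUSG00000052369) at chr15:97964200-97970275. The longest coding sequence of each is spread over 7 coding exons and has 783, 825 and 780 bases, in that order. No other annotated gene overlaps any of the 3. Of the 6931 exonic bases of Tmem106b, 11.9% are coding, against 25.0% for Tmem106a and 32.0% for Tmem106c, so most of the annotated length over which Tmem106b reads can fall is untranslated. Over aligned coding bases the identity was 56.7% between Tmem106a and Tmem106b, 57.0% between Tmem106a and Tmem106c and 61.0% between Tmem106b and Tmem106c. Over all annotated transcripts of each pair of genes, the longest stretch without a difference was 13 bases between Tmem106a and Tmem106b, 12 between Tmem106a and Tmem106c and 13 between Tmem106b and Tmem106c. The sources used here do not give the read length or the treatment of reads that fit several genes.

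Libraries held 37.6 to 63.7 M counts. Grn was at 0 to 16.2 CPM in the 7 Grn KO libraries, 916 to 1870 in the 8 Grn HET and 728 to 4160 in the 11 Grn WT libraries (CPM, library-scaled read counts). The sum of 10 microglia markers, Csf1r among them, was 8810 to 53100 CPM over all libraries, and no marker was at 0 in any. A pair of Hemi libraries stood apart at the low end: Tmem106b KO Grn WT replicate 2, with 9010 CPM of microglia markers and 7910 CPM of 10 neuron markers, and Tmem106b HET Grn KO replicate 3, with 8810 and 7490 CPM. The next lowest microglia sum was 21300 CPM, and the median neuron sum was 557 CPM. Selected values of the 3 family genes and of the gene lists are also given without these 2 libraries. In bulk RNA, fewer cells of a type and less RNA per cell cannot be told apart.

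Tmem106b RNA was lower in Tmem106b KO microglia but was still counted in every one of these libraries. In CPM scaled by TMM (edgeR's trimmed mean of M-values), the 3 Tmem106b WT Grn WT libraries held 88.6, 68.7 and 75.5 and the 4 Tmem106b KO libraries 24.0, 26.7, 26.4 and 35.7. The KO values rest on 970 to 1534 reads each. Every KO library lay below every one of the other 22 libraries of the series, the lowest of which held 39.1 CPM. The group means were 77.6 ± 10.1 CPM (SD, n = 3) and 28.2 ± 5.13 CPM (n = 4). The log2 fold change was -1.49 (SE 0.22, 95% confidence interval -1.95 to -1.04, edgeR quasi-likelihood test, Benjamini-Hochberg adjusted p = 0.027), so the fitted KO level was 35.5% of WT, with an interval from 25.9% to 48.8%. Of 21371 genes tested, 0.00468% passed in this comparison, which was Tmem106b alone, while 2349 genes had an unadjusted p under 0.05.

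The files hold 1 count per gene, so the exons from which these reads came cannot be seen. The exact permutation test of the log2 CPM gave p = 0.029, the smallest that 3 against 4 libraries allow (0.24 after adjustment over 33 tests). The Tmem106b call held without Tmem106b KO replicate 4 and was lost in the other 6 fits that leave out 1 library (edgeR adjusted p = 0.06 to 0.39). It was also lost without the low-microglia libraries (-1.48, edgeR adjusted p = 0.36). The size of the Tmem106b difference moved little: it was -1.57 to -1.44 in those 7 fits. With the neuron and oligodendrocyte marker sums as covariates it was -1.34 (edgeR adjusted p = 0.28), and DESeq2 gave -1.43 (adjusted p = 4.2e-07) with 548 genes called.

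**Figure D1:**
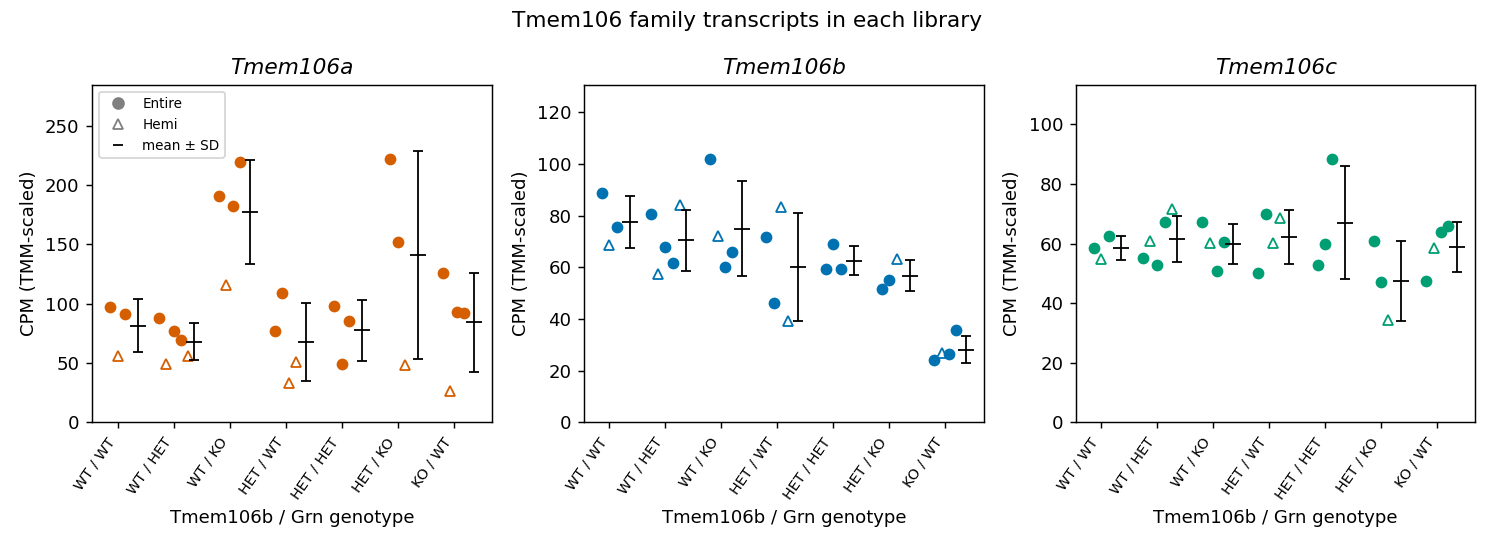
CPM of Tmem106a, Tmem106b and Tmem106c (vertical axes, linear and from 0) in each of the 26 libraries by Tmem106b / Grn genotype, with filled circles for Entire and open triangles for Hemi libraries and black bars for the mean ± SD of each group. The 4 Tmem106b KO libraries lie between 24.0 and 35.7 CPM of Tmem106b, below all others, and within most groups the Hemi libraries are the lowest in Tmem106a.

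Mean Tmem106b RNA was lower in Tmem106b HET than in WT libraries at each Grn genotype, but no such difference passed. With Grn WT the HET libraries had 71.8, 46.3, 83.4 and 39.1 CPM, with Grn HET 59.3, 69.1 and 59.4, and with Grn KO 51.6, 55.2 and 63.3. The Tmem106b WT libraries with Grn HET had 80.7, 57.5, 67.7, 61.7 and 84.3 CPM, and those with Grn KO 102, 72.1, 60.3 and 66.0. HET and WT libraries overlapped at each Grn genotype. The spread among the HET libraries with Grn WT (SD 20.9) was the widest of the 7 groups.

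The HET mean with Grn WT was 60.2 CPM, where the midpoint between the WT and KO means is 52.9 CPM. Averaged over the Grn genotypes, the HET effect was -0.34 (SE 0.13, interval -0.60 to -0.08), a fitted level of 79.1% of WT with an interval from 66.0% to 94.9%. It did not pass (unadjusted p = 0.014, edgeR adjusted p = 1), and an exact permutation test within Grn genotypes gave p = 0.025 (adjusted 0.24). No gene passed in this comparison with edgeR (percent called 0), with 830 at an unadjusted p under 0.05; DESeq2 called 225 and limma-voom 0. By Grn genotype the effect was -0.30 (Grn WT), -0.30 (Grn HET) and -0.40 (Grn KO), with edgeR adjusted p from 0.87 to 1.

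KO against HET with Grn WT gave -1.19 (SE 0.21, interval -1.63 to -0.75), with no overlap between the 4 KO and the 4 HET libraries. This missed the threshold (edgeR adjusted p = 0.094). The exact permutation test gave p = 0.029, the smallest that 4 against 4 libraries allow (0.24 after adjustment over 33 tests). No gene passed there in edgeR, 4002 had an unadjusted p under 0.05, DESeq2 called 1964 and limma-voom 0. Tmem106b passed without Tmem106b KO replicate 4 (adjusted p = 0.02), when 1128 genes (5.29%) were called, or without Tmem106b HET Grn WT replicate 4 (0.014), when it was the 1 gene called (0.0047%).

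Tmem106b RNA showed no difference by Grn genotype that passed. Averaged over Tmem106b WT and HET mice, Grn KO against Grn WT gave -0.01 (SE 0.16, interval -0.34 to 0.32, edgeR adjusted p = 0.97), so the interval of the Grn KO level runs from 78.9% to 124.4% of Grn WT. Grn HET against WT was -0.02 in both Tmem106b backgrounds, with intervals from -0.47 to 0.43 in Tmem106b WT and from -0.50 to 0.46 in Tmem106b HET mice. The Grn KO effect in Tmem106b HET minus that in Tmem106b WT mice was -0.10 (interval -0.75 to 0.55, adjusted p = 0.97).

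Neither paralog was higher in Tmem106b KO microglia by a margin that passed. Tmem106c, the more even of the pair, had 58.4, 54.7 and 62.6 CPM in the Tmem106b WT Grn WT libraries and 47.4, 58.4, 63.9 and 65.9 CPM in the KO libraries. The KO libraries spread on both sides of the WT libraries. The means were 58.6 ± 3.97 (n = 3) and 58.9 ± 8.30 CPM (n = 4), with a log2 fold change of -0.02 (SE 0.20, interval -0.43 to 0.40, edgeR adjusted p = 0.99). The fitted KO level was thus 99.0% of WT, with an interval from 74.3% to 131.7%.

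Tmem106a had 96.9, 55.8 and 91.2 CPM in the Tmem106b WT Grn WT libraries and 126, 26.7, 92.7 and 91.8 CPM in the KO libraries. The highest and the lowest of these 7 values were both from KO libraries, and 26.7 CPM belongs to the library of low microglia markers. The log2 fold change was -0.14 (SE 0.29, interval -0.75 to 0.47, edgeR adjusted p = 0.89), a fitted level of 90.6% of WT with an interval from 59.3% to 138.5%. It was 0.11 without the low-microglia libraries (adjusted p = 0.95), 0.19 among Entire libraries (0.89), 0.05 without covariates and 0.10 with marker sums as covariates (1.0). Against Tmem106b HET with Grn WT, KO gave 0.04 for Tmem106a (interval -0.54 to 0.62) and -0.14 for Tmem106c (interval -0.54 to 0.25).

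In Tmem106b KO against WT, 0 of 10 microglia markers passed, where 0.00468% of all genes were called. All 10 had a negative log2 fold change and their median was -0.68. Their sum was 9010 CPM in Tmem106b KO replicate 2, 38200 to 49200 CPM in the other 3 KO and 41100 to 52000 CPM in WT libraries. Of 10 neuron markers, such as Snap25 and Syp, none passed and 9 were positive (median 1.90). Their sums were 7910 CPM in KO replicate 2, 267 to 1150 CPM in the other 3 KO and 108 to 1450 CPM in WT libraries. Of 8 oligodendrocyte markers 0 passed and 0 were positive (median -2.06). They summed to 675 to 2120 CPM in KO and 1500 to 7720 CPM in WT libraries. Medians of the other marker lists ran from -0.52 (astrocytes) to 2.46 (choroid plexus and ependyma), and no gene in them passed. Without the low-microglia libraries the median was -0.27 for microglia, 1.63 for neuron and -1.56 for oligodendrocyte markers, and none passed. The part of cell makeup in the paralogs' values was not tested beyond the fit with marker sums, given above for Tmem106a. For Tmem106c the 8 other settings, that fit among them, gave -0.06 to 0.07, and 0 of them passed.

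In Tmem106b HET against WT, averaged over Grn genotypes, Tmem106a was at -0.25 (SE 0.17, interval -0.61 to 0.10) and Tmem106c at -0.06 (SE 0.11, interval -0.30 to 0.18), both with edgeR adjusted p = 1. The single Grn genotypes gave -0.40 to -0.17 for Tmem106a and -0.33 to 0.13 for Tmem106c.

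**Figure D2:**
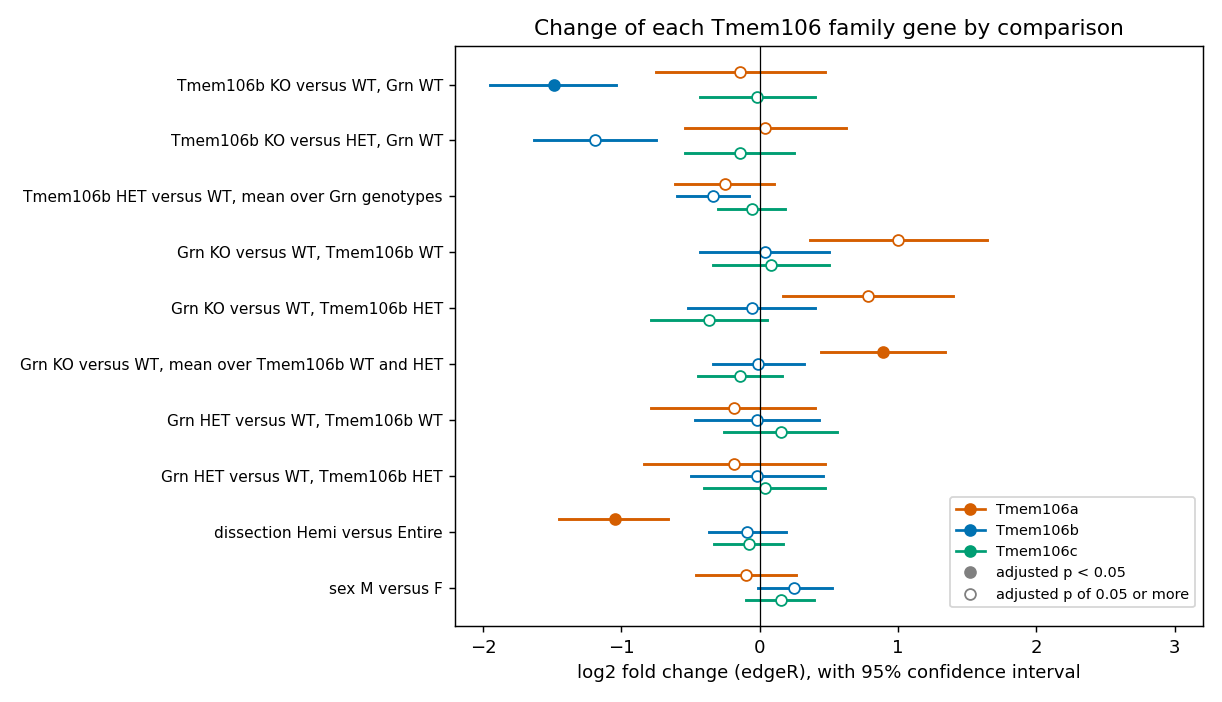
Log2 fold change from edgeR (horizontal axis, lines are 95% confidence intervals) of the 3 genes in 10 comparisons, with filled points for an adjusted p under 0.05. Only Tmem106b in Tmem106b KO against WT (-1.49) and Tmem106a in the averaged Grn KO effect (0.89) and in Hemi against Entire (-1.05) are filled.

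Levels between the genes were compared per length, in the authors' RPKM (reads scaled to gene width and library total). In Tmem106b WT Grn WT libraries Tmem106c was at 29.5 ± 1.41 RPKM, Tmem106a at 27.2 ± 5.38 and Tmem106b at 10.6 ± 0.882 (SD, n = 3). Tmem106b, with the longest gene model (6002 bases, against 2428 for Tmem106a and 1635 for Tmem106c), was thus the lowest, and its 3 values lay below all values of its paralogs. Tmem106a and Tmem106c overlapped, at 21.1 to 31.2 and 27.9 to 30.7 RPKM. Tmem106b made up 15.8% ± 1.39 of the family's summed RPKM, Tmem106a 40.2% ± 5.54 and Tmem106c 44.0% ± 4.94.

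In Tmem106b KO libraries Tmem106b was at 4.29 ± 0.881 RPKM, Tmem106a at 30.1 ± 12.4 and Tmem106c at 33.2 ± 7.34 (n = 4). The family sum was 70.7, 62.2 and 68.8 RPKM in the WT libraries and 67.1, 57.5, 75.0 and 70.6 RPKM in the KO libraries. The KO sums lay on both sides of the WT sums, with means of 67.2 ± 4.44 and 67.5 ± 7.43 RPKM. The log2 difference was 0.00 (exact permutation p = 1.0). For the sum of Tmem106a and Tmem106c alone it was 0.15 (exact permutation p = 0.29, 0.57 after adjustment over 20 tests). Both differences hold for RPKM, which are not TMM-scaled, and they depend on the scaling. Tmem106c had WT and KO means of 29.5 and 33.2 RPKM, but of 58.6 and 58.9 in TMM-scaled CPM. The share of Tmem106b was 6.46% ± 1.79 in KO libraries, a difference of -9.35 percentage points (exact permutation p = 0.029, adjusted 0.13). That p-value is the smallest that 3 against 4 libraries allow.

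**Figure D3:**
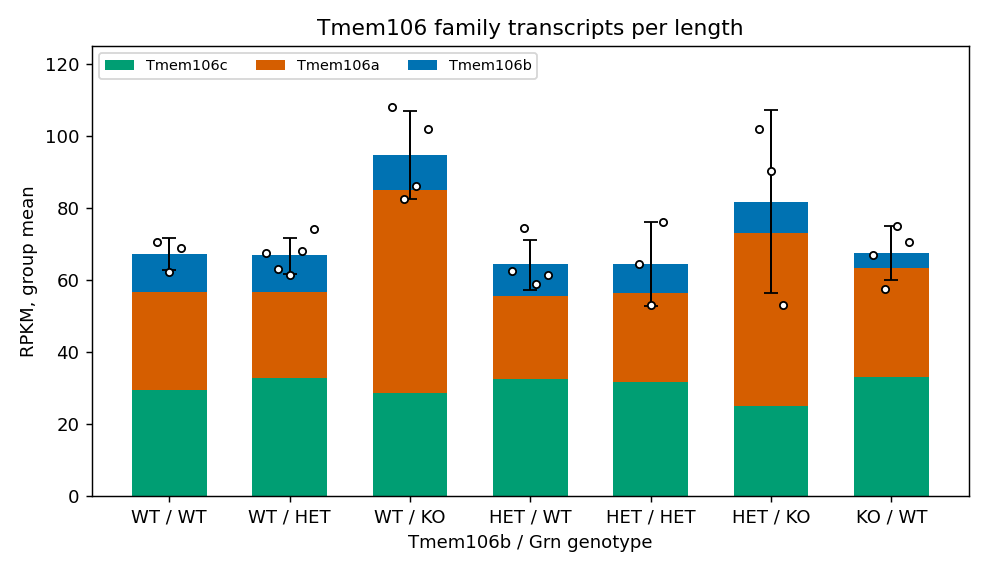
Group means of RPKM stacked for the 3 genes (vertical axis from 0) by Tmem106b / Grn genotype, with the family sum of each library as an open point and black bars for the mean ± SD of that sum. The sum is 67.2 RPKM in Tmem106b WT Grn WT and 67.5 RPKM in Tmem106b KO Grn WT libraries, and 94.7 and 81.7 RPKM in the Grn KO groups.

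Mean Tmem106a RNA was higher in Grn KO than in Grn WT libraries. With edgeR this passed averaged over both Tmem106b backgrounds, but in neither background alone. In Tmem106b WT mice the Grn KO libraries had 191, 116, 182 and 219 CPM, each above the 3 Grn WT libraries (96.9, 55.8 and 91.2 CPM). In Tmem106b HET mice the Grn KO libraries had 222, 152 and 48.5 CPM, and the Grn WT libraries 77.1, 109, 33.6 and 50.7 CPM. The Grn KO libraries at 222 and 152 CPM lay above all 4 Grn WT libraries, and the third, the library of low microglia markers, lay among them.

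Averaged over both backgrounds the log2 fold change was 0.89 (SE 0.21, interval 0.44 to 1.34, edgeR adjusted p = 0.0076), a fitted level 1.86 times that of Grn WT. In this comparison 18.1% of all genes passed, so a call was frequent there. The exact permutation test within backgrounds gave p = 0.021 (adjusted 0.24). The effect alone was 1.0 in Tmem106b WT (SE 0.30, adjusted p = 0.16, with 0.576% of genes called) and 0.78 in Tmem106b HET mice (SE 0.29, adjusted p = 0.080, with 14.5% called). Their difference was -0.22 (interval -1.08 to 0.65, adjusted p = 0.94).

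The averaged rise held in all 14 fits that leave out 1 library (0.79 to 1.07, edgeR adjusted p at most 0.024). It was 1.09 without the low-microglia libraries (adjusted p = 0.00069) and 1.06 among Entire libraries (0.0045). The call was lost without sex and dissection in the fit (1.09, adjusted p = 0.061), where 5.13% of all genes were called. It was also lost with neuron and oligodendrocyte marker sums added to sex and dissection (1.25, 0.059), where 0.655% were called. In the main fit 18.1% were called, and both estimates lay above the 0.89 of that fit. Why fewer genes were called was not tested.

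Among Hemi libraries, the Grn KO library of Tmem106b WT mice had 116 CPM of Tmem106a against 55.8 CPM in the Grn WT library. In Tmem106b HET mice the Hemi Grn KO library, at 48.5 CPM, fell between Grn WT libraries of 33.6 and 50.7 CPM. Cell type markers moved with Grn genotype too: 7 of 10 microglia markers passed as lower in the averaged Grn KO comparison (median log2 fold change -1.40). Their sum was 24000 to 30900 CPM in Tmem106b WT Grn KO and 41100 to 52000 CPM in Tmem106b WT Grn WT libraries. All 10 neuron markers passed as higher (median 2.88), in a comparison in which 18.1% of all genes passed. The 8 oligodendrocyte markers had a median of -1.42, and none passed. The part of this shift in the Tmem106a result was not tested beyond the fit with marker sums.

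Loss of 1 Grn allele gave no call in any of the 3 genes, where 0 of 21371 genes passed in either Tmem106b background. Tmem106a in Grn HET libraries was at 88.3, 49.5, 76.7, 69.4 and 56.3 CPM in Tmem106b WT and at 98.1, 48.8 and 85.7 CPM in Tmem106b HET mice, overlapping Grn WT in both. The log2 fold change was -0.19 in each background (intervals -0.79 to 0.40 and -0.84 to 0.47). For Tmem106c it was 0.15 (interval -0.26 to 0.56) in Tmem106b WT and 0.04 (interval -0.40 to 0.47) in Tmem106b HET mice.

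Tmem106c did not pass by Grn genotype. In Tmem106b WT mice it was at 67.4, 60.1, 50.9 and 60.6 CPM in Grn KO libraries, around the Grn WT values. In Tmem106b HET mice the Grn KO libraries had 61.0, 47.1 and 34.3 CPM and the Grn WT libraries 50.2, 70.1, 60.2 and 68.6 CPM. The groups overlapped, with the lowest value in the library of low microglia markers. The averaged log2 fold change was -0.14 (SE 0.14, interval -0.45 to 0.16, edgeR adjusted p = 0.53).

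With Grn loss the share of Tmem106c in the family's summed RPKM fell, while the difference for Tmem106a did not pass after adjustment. The share of Tmem106a was 59.2% ± 7.32 in Tmem106b WT Grn KO (n = 4) and 55.9% ± 15.0 in Tmem106b HET Grn KO libraries (n = 3), against 40.2% ± 5.54 and 35.3% ± 11.7 with Grn WT. The averaged difference was 19.81 percentage points (exact permutation p = 0.0073, adjusted 0.073). For the share of Tmem106c the averaged difference was -16.18 points (exact permutation p = 0.0016, adjusted 0.033). Shares sum to the whole, so a rise of 1 gene lowers the others' shares. For the family sum, Grn KO minus Grn WT was 0.39 on the log2 scale, which did not pass (exact permutation p = 0.019, adjusted 0.13). In Tmem106b HET mice 1 of the 3 Grn KO libraries, at 53.1 RPKM, lay below all Grn WT libraries (58.9 to 74.5 RPKM).

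The dissection label went with the level of Tmem106a. Hemi libraries ran from 26.7 to 116 CPM (median 50.1) and Entire libraries from 48.8 to 222 CPM (median 94.8). The ranges overlapped, but every group with both kinds had its lowest value in a Hemi library. The log2 fold change of Hemi against Entire was -1.05 (SE 0.19, interval -1.45 to -0.66, edgeR adjusted p = 0.0011), in a comparison in which 20.7% of all genes passed. For Tmem106b it was -0.09 (interval -0.37 to 0.19) and for Tmem106c -0.08 (interval -0.33 to 0.17). Markers moved too, with 9 of 10 microglia markers lower and 9 of 10 neuron markers higher in Hemi libraries. With neuron and oligodendrocyte marker sums in the fit the Tmem106a difference was -0.63 and did not pass (adjusted p = 1.0). In that fit 0 of 21371 genes passed by dissection. Male against female libraries differed by -0.10 for Tmem106a, 0.25 for Tmem106b (interval -0.01 to 0.52) and 0.15 for Tmem106c, all with adjusted p = 1 (0.0281% of genes called).

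Across the 26 libraries, with each group's mean subtracted from log2(CPM + 0.5), Tmem106a followed the microglia marker sum. Pearson's r was 0.88 (permutation p = 2e-05, 0.00024 after adjustment over 12 relations) and Spearman's rho 0.80 (permutation p = 6e-05, adjusted 0.00072). It was 0.63 within the 18 Entire and 0.89 within the 8 Hemi libraries, and 0.80 without the 2 libraries farthest from the median. With the neuron sum r was -0.81 (permutation p = 5e-05, adjusted 0.0003; rho -0.73, permutation p = 0.00029, adjusted 0.0017), with -0.62 in Entire and -0.27 in Hemi libraries and -0.76 without the 2 farthest. With sex and dissection fitted out, the first relation was 0.71 and the second -0.38, for which no p-value was computed. The permutations stayed within groups but mixed Hemi and Entire libraries. Gene levels were TMM-scaled here, while marker sums were CPM of the plain library total.

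For Tmem106b the r with the microglia sum was -0.06 and for Tmem106c 0.22 (permutation p = 0.75 and 0.42, both adjusted to 0.90; rho -0.17 and 0.16, permutation p = 0.42 and 0.49, both adjusted to 0.83). With the 2 farthest libraries left out they were -0.03 and 0.10. For the oligodendrocyte sum r was 0.43 with Tmem106b (0.30 in Entire and 0.59 in Hemi libraries), -0.03 with Tmem106a and -0.09 with Tmem106c. None of these passed (permutation p = 0.19, 0.91 and 0.68, adjusted 0.76, 0.91 and 0.90). The 3 genes did not go together among libraries of a group. The r was -0.17 for Tmem106a with Tmem106b, 0.25 for Tmem106a with Tmem106c and -0.08 for Tmem106b with Tmem106c (permutation p = 0.47, 0.40 and 0.69, each adjusted to 0.90). Spearman's rho was -0.18, 0.15 and -0.05 (permutation p = 0.44, 0.55 and 0.81, adjusted 0.83, 0.83 and 0.85). Without the 2 farthest libraries r was -0.18, 0.10 and -0.17.

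**Figure D4:**
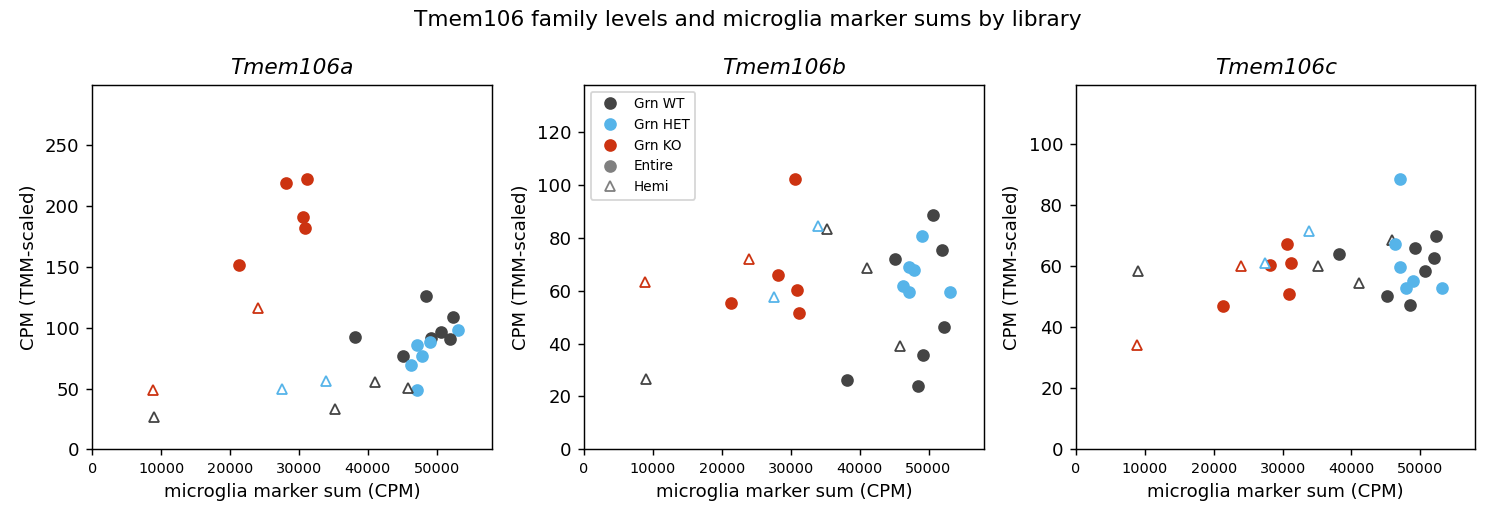
CPM of each gene (vertical axes from 0) against the CPM sum of 10 microglia markers (horizontal axis, linear) in the 26 libraries, coloured by Grn genotype, with filled circles for Entire and open triangles for Hemi. The 2 libraries with the fewest marker reads (8810 and 9010 CPM) have 48.5 and 26.7 CPM of Tmem106a, and Grn KO libraries at 21300 to 31200 CPM of markers in the Entire dissection have 152 to 222 CPM.

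By the same measure over 10825 genes, the genes most like Tmem106a were Grap, an adaptor protein gene (r = 0.95), Ctsb, a lysosomal cysteine protease (0.95), Il10rb, a subunit of the interleukin-10 receptor (0.95), Acp2, a lysosomal acid phosphatase (0.94), and Cd68, a lysosomal membrane glycoprotein of macrophages (0.94). Those most like Tmem106b were Ube2d2a, a ubiquitin-conjugating enzyme (r = 0.73), Trappc10, of a vesicle tethering complex (0.70), Dpy19l1 (0.70), the RNA-binding protein gene Dazap1 (0.69) and Ppp2r5c, a regulatory subunit of protein phosphatase 2A (0.69). Tmem106c was closest to Yju2, a splicing factor (0.73), Patl1, of mRNA decay (0.65), the tetraspanin gene Cd151 (0.65), Fam89a (0.64) and Aldh18a1, an enzyme of proline synthesis (0.63). The libraries share depth and cell makeup, so these values are a description.

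Gene lists around Tmem106b were set beside these values, in a comparison in which 0.00468% of all genes passed, so that a count of 0 for a list is near the background. Of 14 genes whose products bind Tmem106b or progranulin or share their lysosomal path, 0 passed, and the median log2 fold change was -0.23 against 0.07 over all genes. Without the low-microglia libraries this median was -0.10 against 0.08. Sortilin, the progranulin receptor encoded by Sort1, went from 283 ± 99.8 CPM (n = 3) to 161 ± 93.8 CPM (n = 4; -0.85, SE 0.34, edgeR adjusted p = 0.43). Psap, which encodes prosaposin, was at -0.45 (adjusted p = 0.52). The microtubule-associated protein genes Map1b and Map6, which neurons express strongly, were at 2.07 and 1.11 (adjusted p = 0.43 and 0.52), where 9 of 10 neuron markers were positive. Without the low-microglia libraries Sort1 was at -0.66, Psap at -0.21, Map1b at 1.81 and Map6 at 0.54 (edgeR adjusted p = 0.79 to 0.91).

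Of 26 genes of lysosome transport and positioning 0 passed, against the same 0.00468% (median -0.11, also without the low-microglia libraries). Plekhm1, an adaptor of late endosome and lysosome fusion, went from 52.0 ± 7.27 to 27.3 ± 10.7 CPM (-1.01, SE 0.29, edgeR adjusted p = 0.43). Rab7, the small GTPase of late endosomes, went from 217 ± 27.5 to 172 ± 10.4 CPM (-0.35, SE 0.13, adjusted p = 0.43). The kinesin gene Kif5a was at 1.75 (adjusted p = 0.43), and Bloc1s2, a subunit of the BLOC-1 and BORC complexes at under 1 CPM on average, at 1.07 (adjusted p = 0.51).

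Of 26 genes of lysosomal membrane proteins 0 passed (background 0.00468%), and 3 had a log2 fold change above 0 (median -0.31). Without the low-microglia libraries 6 were above 0 (median -0.13). Tmem63a, a mechanically gated channel, was at -0.81, Laptm5, a lysosomal membrane protein of blood cells, at -0.76, the chloride-proton exchanger gene Clcn7 at -0.53 and the cation channel gene Mcoln1 at -0.29 (edgeR adjusted p = 0.44 to 0.45). In the fit without those libraries the values were -0.44, -0.37, -0.36 and -0.27. The microglia markers had a median of -0.68 with all libraries and -0.27 without the 2.

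In the averaged Grn KO comparison the same lists did hold calls, against 18.1% of all genes. Of the 14 partners 4 rose and 2 fell: the exonuclease gene Pld3 rose by 1.87 on the log2 scale, the cathepsin gene Ctsd by 0.96, Map6 by 2.30 and Map1b by 3.44, while Sort1 fell by 1.13 and Grn itself, the targeted gene, fell by 10.12. Map1b, Map6 and Kif5a are genes that neurons express strongly, and all 10 neuron markers rose in this comparison too (median 2.88). With marker sums in the fit, 0.655% of all genes were called, among them Map1b (1.17, edgeR adjusted p = 0.0051) but not Map6 (0.85, 0.50) or Kif5a (0.79, 0.65). Of the 26 transport genes 4 rose and 1 fell, which is near the 18.1% of all genes called. Those that rose were Bloc1s1 (0.76), the kinesin adaptor gene Plekhm2 (0.88), Kif5a (1.79) and Rab2a (0.48), and Pip4p1, a phosphoinositide phosphatase gene, fell by 0.49. Of the lysosomal membrane genes 6 rose and 3 fell. Among them Cd63 rose by 1.78, Cd68 by 1.14 and Mcoln1 by 0.44, while Tmem63a fell by 1.38 and Laptm5 by 0.76. With marker sums in the fit the partners held 2 higher calls and 1 lower, the transport genes 0 and the lysosomal membrane genes 1 higher. In the fit without the low-microglia libraries, 13.8% of all genes were called. The partners held 4 higher and 2 lower calls there, the transport genes 3 and 1, and the lysosomal membrane genes 7 and 3. The median of the transport genes was 0.07, as over all genes. Rab2a lost its call (0.39, edgeR adjusted p = 0.056). Ctsd was at 1.22, Cd63 at 2.07 and Cd68 at 1.44, with Tmem63a at -1.07 and Laptm5 at -0.51.

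In Hemi libraries 10 lysosomal membrane genes were lower and 1 higher, against 20.7% of all genes called, among the lower ones Lamp1 (-0.69), Lamp2 (-0.72) and Cd68 (-0.97). In the same comparison 9 of 10 microglia markers were lower (median -0.92). Without the low-microglia libraries 5 lysosomal membrane genes and 8 microglia markers were lower, with 7.45% of all genes called. With marker sums in the fit no gene was called, and the part of cell makeup in these values was not tested further.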

How the data were processed

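Poly(A) RNA of 26 microglia libraries was amplified with a low-input cDNA kit and prepared with a transposase-based kit, per the labels' protocols. Reads were aligned with GSNAP to GRCm38, per the submitters' processing notes. The sources used here name neither the counter nor its strand setting. The deposited files hold raw exonic counts per gene, per the file headers, with the authors' RPKM and the gene width behind it; exonic counts were 79.9% to 86.4% of the total used for RPKM. Replicate pairs (37) differed beyond counting noise, and each library was counted as 1 sample. Totals were 37.6 to 63.7 M counts. Their number limits the precision of a gene, and counts are reads, not molecules.

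Counts were tested with edgeR 4.0.16 (R 4.3.3): filter on the 7 groups (21371 genes left), TMM scaling, robust quasi-likelihood fit with sex and dissection, and Benjamini-Hochberg adjustment over all genes, with a threshold of 0.05. limma 3.58.1 and DESeq2 1.42.0 were alternatives. Single values of log2(CPM + 0.5), RPKM sums and shares were compared with two-sided exact permutation tests (SciPy 1.17.1), and correlations with 100000 permutations within groups. The fit was also run on simulated counts with known changes in the Tmem106b KO group. Those counts held no differences of sex, dissection or cell makeup, so they cannot show how calls fare under such differences. Coding sequences came from GENCODE on GRCm38 and were aligned with Biopython 1.88 for identities; the sequences themselves are not printed.

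The members, gene lists and tests were chosen with earlier results of these data known. Named genes are the 3 members, the 5 genes most correlated with each (at least 5 CPM), up to 4 genes per list by p in Tmem106b KO against WT, and up to 2 leading markers per list, of which 1 is not reported here; list genes named for Grn KO or dissection were picked after their values were seen. Besides microglia, neurons and oligodendrocytes, marker lists covered astrocytes (344 to 1330 CPM over all libraries), border macrophages (48.1 to 641), endothelial cells (0.259 to 504), choroid plexus and ependyma (3.98 to 25900), monocytes and neutrophils (0.021 to 26.5) and lymphocytes (0.297 to 101); oligodendrocyte markers summed to 546 to 25600 CPM. The alternatives were other scaling, no filter, other covariates, Entire libraries only, other tools, another pseudocount, each library left out and, added after seeing the data, the fit without the 2 libraries of lowest microglia markers and the gene lists in it and with marker sums. Correlations with marker sums were also added, and only those between the 3 family genes were planned.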

Additional observations from a re-analysis of the deposited data

How the results depend on the processing

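No paired analysis was possible because the replicate numbers were given only as names and tie no library of one group to a library of another. The depth of 970 to 1534 reads per Tmem106b KO library is the lowest behind the Tmem106b values. In the settings other than leaving out a library, 387 of 449 values kept their direction and their side of the threshold, 46 changed sign, 9 lost the call, 6 gained it and 1 correlation moved. The causes of the changes listed here were not tested.

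The log2 fold change of Tmem106b in Tmem106b KO against WT kept its sign but missed the threshold with RLE size factors (-1.43, adjusted p = 0.074), without covariates (-1.46, 0.052), with marker sums as covariates (-1.34, 0.28), among Entire libraries (-1.43, 0.31), with limma-voom (-1.50, 0.11) and without the 2 low-microglia libraries (-1.48, 0.36). It passed without the filter (-1.50, 0.026) and with DESeq2. Leaving out 1 library gave -1.57 to -1.44, and the call was lost without Tmem106b KO replicate 1 (0.15), 2 (0.2) or 3 (0.22) or Tmem106b WT Grn WT replicate 1 (0.15), 2 (0.39) or 3 (0.06). Against HET it was -1.37 to -1.0 with 1 library left out and passed with DESeq2 (-1.14, 8.2e-05). The Grn KO effect on Tmem106a passed with DESeq2 in Tmem106b WT (1.03, 0.013) and HET mice (0.85, 0.018), with RLE in HET mice (0.85, 0.044), and without the 2 low-microglia libraries in both (1.06, 0.022 and 1.13, 0.016). Averaged, it missed without covariates (1.09, 0.061) and with marker sums (1.25, 0.059), as did Hemi against Entire with marker sums (-0.63, 1.0). The r of Tmem106a with neuron markers moved to -0.38 with sex and dissection fitted out.

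Values near 0 that never passed changed sign. For Tmem106a these were Tmem106b KO against WT (0.05 without covariates, 0.10 with marker sums, 0.19 in Entire, 0.11 without the low-microglia libraries), HET against WT with Grn WT (0.13 in Entire) and with Grn HET (0.19 without covariates), Grn HET in Tmem106b HET (0.20 without covariates), sex (0.12 in Entire, 0.01 without the low-microglia libraries), the Grn KO interaction (0.02 with marker sums, 0.07 without those libraries) and the Grn HET interaction (-0.03 with RLE or DESeq2, -0.13 with marker sums, -0.24 in Entire, -0.02 with limma-voom). For Tmem106b they were Grn KO in Tmem106b WT (-0.05 without covariates), in Tmem106b HET (0.05 with marker sums, 0.01 with limma-voom) and averaged (0.03 with RLE or DESeq2, 0.05 with marker sums, 0.02 with limma-voom), and Grn HET in Tmem106b WT (0.04 with marker sums, 0.08 in Entire) and HET (0.06 without covariates, 0.08 with marker sums, 0.04 with limma-voom). For Tmem106c they were KO against WT (0.05 with RLE or DESeq2, 0.01 without covariates, 0.07 in Entire), HET against WT with Grn HET (-0.01 with RLE or DESeq2, -0.03 in Entire) and averaged (0.11 in Entire, 0.03 without the low-microglia libraries), Grn HET in Tmem106b HET (-0.09 in Entire), the Grn HET interaction (0.03 without covariates) and dissection (0.03 without the low-microglia libraries). With CPM of the plain total, differences of log2 CPM changed sign for Tmem106a in KO against WT (0.05), Tmem106b in Grn HET with Tmem106b HET (-0.01) and Tmem106c in HET against WT with Grn HET (-0.04) and in Grn KO and Grn HET (-0.06 and -0.05), and the family sum in KO against HET was -0.02 with TMM-scaled CPM per kilobase.

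With 1 library left out, Tmem106a ranged from -0.34 to 0.08 in KO against WT, -0.17 to 0.27 in KO against HET, -0.42 to 0.20 in HET against WT with Grn HET, -0.42 to 0.18 in Grn HET with Tmem106b HET, -0.50 to 0.05 and -0.23 to 0.41 in the Grn KO and Grn HET interactions and -0.22 to 0.02 by sex. Tmem106b ranged from -0.09 to 0.13, -0.23 to 0.11 and -0.09 to 0.08 in Grn KO (Tmem106b WT, HET, averaged), -0.08 to 0.04 and -0.22 to 0.15 in Grn HET (WT, HET), and -0.29 to 0.10 in the Grn KO interaction. Tmem106c ranged from -0.06 to 0.08 in KO against WT, -0.20 to 0.12 and -0.14 to 0.02 in HET against WT (Grn HET, averaged), -0.21 to 0.02 in averaged Grn KO and -0.17 to 0.17 in Grn HET with Tmem106b HET. The Grn HET interaction of Tmem106b, 0.00, has no direction.

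Counts of called genes differed between settings. In Tmem106b KO against WT they were 1 in edgeR, 0 with limma-voom and 548 with DESeq2, in averaged Grn KO 3863 in edgeR, 1097 without covariates, 140 with marker sums and 5812 with DESeq2, and in Hemi against Entire 4424 in edgeR, 0 with marker sums and 1653 without the low-microglia libraries. In Tmem106b WT mice Grn KO gave 123 in edgeR, 58 without covariates, 74 with marker sums, 177 with limma-voom, 336 in Entire libraries, 550 without the low-microglia libraries and 1171 with DESeq2. There, leaving out 1 library gave 1 (without Tmem106b WT Grn WT replicate 2), 20 (replicate 3) or 39 (replicate 1), and 40, 376, 80 and 69 without Tmem106b WT Grn KO replicates 1 to 4. In Tmem106b HET mice Grn KO gave 3093 in edgeR, 9 with marker sums, 224 without covariates, 1472 in Entire libraries, 1548 without the low-microglia libraries and 5264 with DESeq2. Leaving out 1 library there gave 1095 (without Tmem106b HET Grn KO replicate 3) to 2753 calls, with 1539 without replicate 2 of that group and 1752 and 2029 without Tmem106b HET Grn WT replicates 4 and 2. KO against HET went from 0 to 1128 calls without Tmem106b KO replicate 4.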
